A study of Mus musculus with 40 samples.

Results

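CD11b+ cells sorted from the tumor-bearing hemispheres of GL261 glioma-bearing mice were compared with CD11b+ cells sorted from the hemispheres of naïve mice. The samples were chosen by their labels as the 3 vehicle samples of the C57BL/6 GL261 experiment and the 3 naïve samples of the same table, which together are 6 of the 40 samples of the series. All mice were C57BL/6 animals. The study's section on implantation gives them as male and 10 to 12 weeks old, and no age at collection is given for either group. The vehicle group had received GL261 cells, a murine glioma line carrying tdTomato and luciferase (tdTomato+luc+), in the right striatum and water from an osmotic pump that opened into the tumor, and was taken at 21 days post implantation (21 DPI). The naïve group carried no tumor, and whether these mice underwent surgery or wore a pump is not given in the sources used here, so that tumor, implantation and pump cannot be told apart. Each sample pooled the CD11b+ cells of 2 animals, and a single sort on CD11b collected microglia together with blood-derived myeloid cells. The labels call GL261 a human line and print its name on the naïve samples too, and the groups were therefore taken from the sample titles.

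CD11b, the integrin alpha M chain, sits on microglia, monocytes, macrophages, neutrophils and some dendritic and natural killer (NK) cells. Microglia are long-lived macrophages of the brain that arise in the yolk sac and hold their identity through TGF-beta signaling and transcription factors such as SALL1, whereas in gliomas monocytes enter from the blood and become macrophages, and both kinds of cell are known together as glioma-associated microglia and macrophages (GAMs). Interferons act on myeloid cells through transcription factors that bind GAAA-rich interferon-stimulated response elements (ISREs) in promoters, and they raise antiviral proteins, GTPases, antigen presentation and T cell-attracting chemokines. In bulk RNA of sorted cells, fewer cells of a type and less RNA per cell cannot be told apart.

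Levels are given as RPKM, a read number scaled by transcript length and by library size, obtained by subtracting the constant 2 that the deposited values carry. Fold changes are differences of log2(RPKM + 1), vehicle minus naïve, which understate the change of genes that are low in either group. A gene entered the test if its average over the 6 samples was 1 RPKM or more, and it was called at a limma adjusted p under 0.05. Some genes thus entered only through the group in which they were high, and for these the direction of change was set by the filter. Such genes were also members of many of the gene groups below, so the counts and medians given for those groups include them. The 3 naïve samples held 9361 to 9447 and the 3 vehicle samples 9353 to 9410 protein-coding genes at 1 RPKM or more. The number of reads behind each value is unknown, so values well under 1 RPKM carry an unknown counting error.

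The tumor was accompanied by a change in most of the genes that CD11b+ cells express. Of 9728 genes tested, 3367 (34.6%) rose and 4693 (48.2%) fell, together 82.9%. In 85.4% of genes the 3 vehicle samples did not overlap the 3 naïve samples, with the vehicle samples above in 35.6% and below in 49.8%. Changes of at least 2-fold past the same threshold were reached by 1423 genes upward (14.6%) and 1325 downward (13.6%). Large changes were mostly gains: 328 genes rose at least 8-fold (3.37%) and 70 fell at least 8-fold (0.72%), and 59 rose at least 32-fold while no gene fell as far. These folds are of RPKM + 1. By mean RPKM without the added 1, Gpr165 was 42.2 times higher in naïve than in vehicle samples. The median gene stood at -0.14, and the balance of small calls depended on scaling, since normalization by trimmed mean of M values (TMM) or by median ratios moved that median by 0.12 or 0.17 and the share of calls that were higher from 41.8% to 48.9% or 51.4%. The counts for gene groups given from here on are to be read against these shares.

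**Figure D1:**
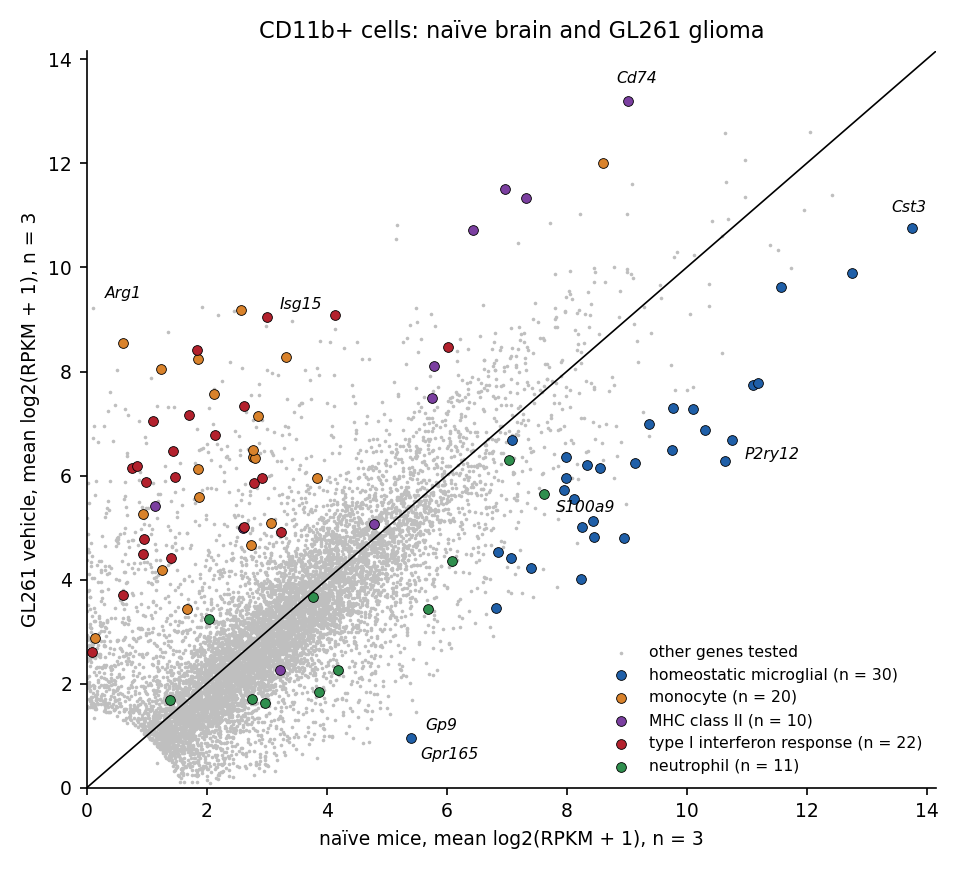
Mean log2(RPKM + 1) of each of the 9728 tested genes in naïve mice (x axis) and in the GL261 vehicle group (y axis), n = 3 samples each, with 5 gene groups in color and the line of equal level. Homeostatic microglial genes lie below the line, and monocyte, type I interferon response and most MHC class II genes lie above it.

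The promoters of the interferon-regulated genes are shown first because these genes moved together and many of their promoters carry letters of the element through which interferons act. An ISRE core, spelled as GAAA, any 2 bases and GAAA again and searched on both strands in the 250 bases before RefSeq transcription starts (GRCm38.p6, the mm10 build to which the reads were aligned), was present in 3.46% of 27025 genes with a promoter and in 286 of the 7834 tested genes that had one (3.65%). It was present in 8 of 16 type I interferon response genes (50%) and in 11 of 14 interferon-gamma targets (78.6%) with a promoter, in 50 of 252 genes that rose at least 8-fold (19.8%) and in 1 of 47 that fell as far (2.13%). The genes that rose at least 8-fold include many of these interferon genes, so their share is not a separate observation. None of 22 homeostatic microglial promoters held these letters. A core of the myeloid factor PU.1, GAGGAAGT, was searched likewise. It was present in 3.43% of tested genes with a promoter, in 6.35% of those at least 8-fold higher, in 6.38% of those at least 8-fold lower and in 0 of 22 homeostatic microglial promoters. The ISRE core nearest to the start is in capitals in 5 of the interferon-regulated promoters. They are given on the strand of the gene, with TTTC marking an element that reads on the opposite strand:
Isg15 (chr4:156200850-156200909, minus strand): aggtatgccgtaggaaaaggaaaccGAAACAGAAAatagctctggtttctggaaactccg
Ifit3 (chr19:34583382-34583441, plus strand): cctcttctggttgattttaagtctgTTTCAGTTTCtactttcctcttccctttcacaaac
Gbp2 (chr3:142620579-142620638, plus strand): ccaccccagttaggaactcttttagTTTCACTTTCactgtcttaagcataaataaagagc
Irgm1 (chr11:48871421-48871469, minus strand): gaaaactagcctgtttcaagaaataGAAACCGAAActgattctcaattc
Cxcl10 (chr5:92349068-92349127, minus strand): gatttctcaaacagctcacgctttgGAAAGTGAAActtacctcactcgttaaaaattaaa
The element nearest to the start ended 57, 113, 50, 15 and 204 bases before the start of Isg15, Ifit3, Gbp2, Irgm1 and Cxcl10, respectively. A match is a description of the letters and not a bound site.

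The sorted cells were myeloid in both groups. Of 10 pan-myeloid genes, 5 rose and 3 fell. Itgam, which encodes the sorted CD11b chain, was at 120.0, 112 and 113 RPKM in the naïve samples and at 63.8, 51.2 and 63.4 in the vehicle samples, a log2 fold change of -0.95 ± 0.09 (SE). Ptprc, which encodes the leukocyte phosphatase CD45, was at 19.6, 17.9 and 19 in naïve and 41.5, 44.7 and 55.4 in vehicle samples (1.27 ± 0.10). For both genes the vehicle samples lay outside the range of the naïve samples. All 7 neuron markers were under 1 RPKM in all 6 samples. Of 8 oligodendrocyte markers 3 were tested, of which Cnp rose from 25.7, 24.5 and 23.8 RPKM to 29.9, 40 and 31.5 RPKM (0.43 ± 0.10), Mag fell (-0.85) and Mbp was not called (7.39, 6.99 and 6.42 RPKM in naïve and 7.68, 6.92 and 9.03 RPKM in vehicle samples, adjusted p = 0.151; called at 0.24 without vehicle 2). Olig1 and Sox10 are expressed in the oligodendrocyte lineage and in many gliomas, and both rose. Both were under 1 RPKM in naïve samples and entered the test only through the vehicle samples. Olig1 was at 0, 0.297 and 0.308 RPKM in naïve and 4.36, 2.78 and 5.09 RPKM in vehicle samples (2.06 ± 0.18), and Sox10 at 0, 0.139 and 0.199 RPKM and 2.04, 1.86 and 2.83 RPKM (1.54 ± 0.12). The part of tumor cells or their RNA in other results was not tested.

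The homeostatic genes of microglia fell as a group. All 30 listed surface, secreted and receptor genes fell, 29 of them by more than 2-fold, with a median log2 fold change of -2.96 and a largest adjusted p of 0.00311 (P2ry6, whose call was lost under median-ratio scaling). Their summed level went from 40029 to 42235 RPKM in the naïve samples to 4560 to 6192 RPKM in the vehicle samples, a ratio of the means of 0.134. Tmem119, a transmembrane protein that separates microglia from other macrophages, was at 2233, 2324 and 2065 RPKM in naïve and 246, 155 and 255 RPKM in vehicle samples (-3.36 ± 0.18, adjusted p = 6.21e-07). P2ry12, the ADP receptor that steers microglial processes, was at 1735, 1745 and 1728 in naïve and 111, 75.1 and 125 in vehicle samples (-4.08 ± 0.17). Cx3cr1, the fractalkine receptor, was at 2437, 2324 and 2222 in naïve and 251, 166 and 248 in vehicle samples (-3.41 ± 0.15). None of these groups overlapped, and vehicle 2 was the lowest of the vehicle samples in each.

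The 10 largest falls among tested genes included 5 members of this list. Gpr165, an orphan receptor, was at 40.6, 39.5 and 44 RPKM in naïve samples and 0.84, 0.559 and 1.54 in vehicle samples (-4.45 ± 0.16), the largest fall of any tested gene. Fcrls, an Fc receptor-like scavenger molecule of mouse microglia, was at 1653, 1565 and 1583 in naïve and 106, 48.4 and 86.6 in vehicle samples (-4.37 ± 0.25). The fructose transporter Slc2a5 (-4.22), the lysophosphatidylserine receptor Gpr34 (-4.16) and P2ry12 completed the first 5, and Gp9 (-4.03), the prostaglandin-degrading enzyme Hpgd (-3.98), Ecscr (-3.86), Tmem204 (-3.83) and the lipid transporter Abca9 (-3.77) the first 10. The sialic acid-binding lectin Siglech fell from 351, 337 and 354 to 37, 26.7 and 40.3 RPKM, and the matricellular protein gene Sparc from 1277, 1277 and 1244 to 136, 86.9 and 136 RPKM. Genes that macrophages of many tissues share fell less: Csf1r, the receptor for the survival factor CSF1, went from 3067, 3060.2 and 3012 to 839, 749 and 770.0 RPKM (-1.95 ± 0.07), and the purinergic receptor P2ry6 from 142, 139 and 127 to 116, 100.3 and 92.2 (-0.41 ± 0.09).

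The transcription factors did not move as one. Of 15 listed factors, 9 fell, 3 rose and 3 were not called, with a median of -0.48. Sall1, which maintains microglial identity, was at 281, 291 and 287 RPKM in naïve and 27.5, 22.3 and 26.1 in vehicle samples (-3.46 ± 0.08), and its relative Sall3 at 29.6, 31.4 and 28.6 in naïve and 3.35, 3.06 and 3 in vehicle samples (-2.90 ± 0.06). Mef2c (-2.55 ± 0.09) and Smad3, a transducer of TGF-beta signals (-2.32 ± 0.13), fell as well. General myeloid factors moved less: Irf8 was at 106, 103 and 101 RPKM in naïve and 77.2, 86.7 and 94.3 RPKM in vehicle samples (-0.27 ± 0.08, adjusted p = 0.0114, a call that was lost under both other scalings), and Spi1, which encodes PU.1, rose by 0.38 ± 0.06. Tgif1, a repressor of TGF-beta responses, rose from 6.94, 8.08 and 7.84 to 20.9, 26.8 and 24.6 RPKM (1.54 ± 0.10).

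**Figure D2:**
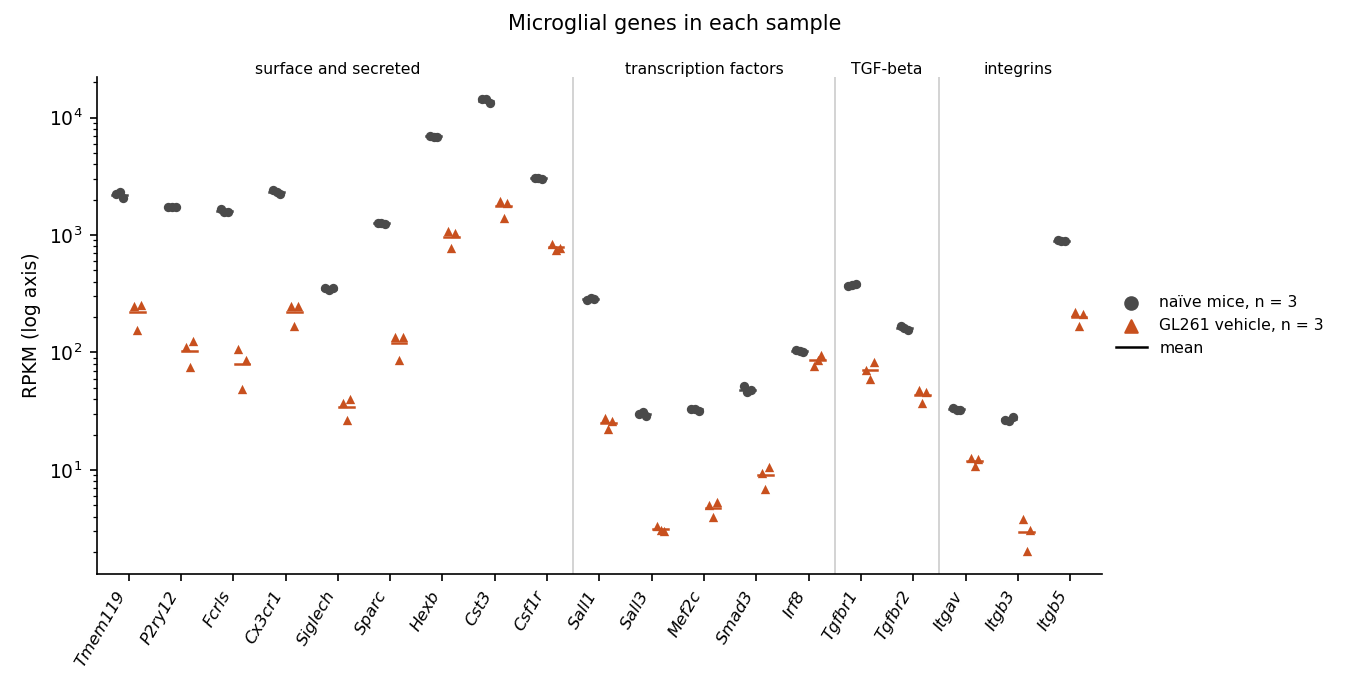
RPKM on a log axis of 19 microglial, TGF-beta and integrin genes in each of the 3 naïve samples (dots) and 3 GL261 vehicle samples (triangles), with bars at the means. Tmem119 went from a mean of 2207 to 219 RPKM, whereas Irf8 was at 103 and 86.1 RPKM.

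Genes of TGF-beta signaling moved in both directions. Of 11 tested genes of the TGF-beta list (of 15), 8 fell and 2 rose, and 6 fell under both other scalings. Tgfbr1 and Tgfbr2, the type I and type II receptors, fell by 2.40 and 1.87 on the log2 scale, from 370.5, 377 and 379.6 to 70.5, 59.9 and 82.3 RPKM and from 168, 161 and 155 to 48.1, 37.3 and 45.9 RPKM. The ligand Tgfb1 was at 152, 158 and 149.8 RPKM in naïve and 134, 123 and 142 RPKM in vehicle samples (-0.20 ± 0.07, adjusted p = 0.0201, not called under the other scalings or without some single samples). Tgfbi, a secreted matrix protein that TGF-beta induces and that carries an RGD sequence, went the other way, from 33.5, 35.3 and 37.1 to 1621, 1866 and 1928 RPKM (5.63 ± 0.08).

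Integrins that bind RGD motifs include the targets of the blocking peptide 7aaRGD, which was used elsewhere in the study. Of 9 listed subunits 5 were tested, and 4 fell. Itgb5 was at 903, 891 and 897 RPKM in naïve and 221, 166 and 212 in vehicle samples (-2.17 ± 0.11), Itgb3 at 26.9, 26.3 and 28.1 in naïve and 3.82, 2.03 and 3.1 in vehicle samples (-2.84 ± 0.15), and their partner chain Itgav at 33.4, 32.4 and 32.5 in naïve and 12.6, 10.8 and 12.3 in vehicle samples (-1.39 ± 0.06). Itga5, the chain of the fibronectin receptor, rose from 8.76, 9.53 and 8.98 to 41, 37.5 and 54.1 (2.15 ± 0.12). Of the matching ligands, 7 of 11 were tested, 4 rose and 3 fell. Spp1, osteopontin, went from 2.79, 2.26 and 3.02 to 142, 65.4 and 77.2 RPKM (4.62 ± 0.25), the fibronectin gene Fn1 from 3.84, 2.77 and 3.5 to 227, 196 and 150.1 (5.44 ± 0.15) and Thbs1 from 5.55, 5.24 and 5.2 to 210.0, 111 and 138 (4.55 ± 0.20). Mfge8, a bridge between dying cells and phagocytes, was at 6.68, 6.95 and 6.45 RPKM in naïve and 5.21, 5.71 and 3.54 RPKM in vehicle samples (-0.42 ± 0.13, adjusted p = 0.0189, not called under the other scalings or without some single samples). Of 8 tested leukocyte integrin subunits (of 9), 6 rose and 2 fell: Itgal (4.04 ± 0.12), Itgax (4.15 ± 0.08) and Itga4 (2.93 ± 0.11) were among those that rose, and Itga6 (-2.62 ± 0.17) and Itgam fell.

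Genes of inflammatory monocytes rose as a group. All 20 listed genes were tested and all 20 rose by more than 2-fold, with a median of 3.71 and no overlap between the groups. Ly6c2, a surface protein of inflammatory monocytes, was at 1.35, 1.82 and 0.985 RPKM in naïve and 185, 303 and 325 in vehicle samples (6.80 ± 0.22). Ccr2, the CCL2 receptor by which monocytes leave the marrow, was at 5.63, 5.8 and 5.97 in naïve and 84.2, 66.9 and 94.7 in vehicle samples (3.59 ± 0.12), and Plac8 at 5.63, 4.08 and 5.24 in naïve and 407, 670.4 and 702 in vehicle samples (6.60 ± 0.20). The intermediate filament gene Vim rose from 9.16, 8.77 and 9.1 to 292, 297 and 338 (4.95 ± 0.07) and the lysozyme gene Lyz2 from 365, 401 and 397 to 4457, 3598 and 4278 (3.40 ± 0.10). Ly6i, the second largest rise of all genes, and Ly6a, the fifth, belong to the Ly6 cluster, whose members resemble each other enough for reads to be shared, so that their separate values are uncertain. Ly6i stood at 260.1, 458 and 438 RPKM (7.94 ± 0.22) and Ly6a at 469.7, 645 and 727 RPKM (7.32 ± 0.15) in the vehicle samples.

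Neutrophil genes were mostly lower with the tumor. Of 14 listed genes, 11 were tested, 8 fell and Mmp8 alone rose (1.21 ± 0.23), and their summed level was 432 to 563 RPKM in naïve and 139 to 284 RPKM in vehicle samples. Retnlg (means of 12.7 RPKM in naïve and 15.8 RPKM in vehicle samples) and Cxcr2 (1.63 and 2.56 RPKM) were not called. Without vehicle 3, Cxcr2 was called higher, at 0.74. S100a8 and S100a9 encode the calprotectin chains. S100a8 was at 54.4, 72 and 75.8 RPKM in naïve and 33.2, 18.3 and 12 RPKM in vehicle samples (-1.73 ± 0.31), and S100a9 at 157, 226 and 212 RPKM and 94.7, 41.1 and 30.6 RPKM, respectively (-1.97 ± 0.37). The granule genes Ngp (-2.25 ± 0.28), Ltf (-2.04 ± 0.25) and Camp (-1.94 ± 0.34) fell in parallel. Ly6g, the defining surface marker, was too low to test, at 0.421, 1.12 and 1.3 RPKM in naïve and 0.121, 0.0516 and 0.127 RPKM in vehicle samples.

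Markers of border-associated macrophages, which line the meninges and vessels, and of dendritic cells were mixed. Of 14 tested border-associated genes (of 15), 7 rose and 5 fell. Lyve1 and Cd163 averaged under 1 RPKM in vehicle samples and entered the test only through the naïve samples, which fixed their direction. Lyve1, the hyaluronan receptor that defines such cells, was at 2.79, 4.48 and 5.76 RPKM in naïve and 0.191, 0.218 and 0.0891 in vehicle samples (-2.16 ± 0.19), and the hemoglobin scavenger receptor Cd163 at 2.85, 4.36 and 5.39 in naïve and 0.796, 0.565 and 0.274 in vehicle samples (-1.73 ± 0.19). The risers included Ms4a7 (1.47, 1.86 and 2.23 RPKM in naïve and 43.5, 33 and 39 RPKM in vehicle samples; 3.79 ± 0.12) and the sialoadhesin gene Siglec1 (3.75 ± 0.15). Pf4 was at 12.3, 19 and 15.7 RPKM in naïve and 25.9, 6.8 and 7.79 RPKM in vehicle samples and was not called (adjusted p = 0.381), although it was called lower, at -0.99, without vehicle 1. Of 13 tested dendritic cell markers (of 16), 8 rose and 2 fell. Of the risers, Ccr7, Ccl22, Ffar2, Flt3, Dpp4, Cd7 and Itgae averaged under 1 RPKM in naïve samples. These genes entered the test only through the vehicle samples, which fixed their direction. Ccr7, the receptor of migrating dendritic cells, was at 0.384, 0.377 and 0.115 RPKM in naïve and 37.5, 47.6 and 49.1 RPKM in vehicle samples (5.14 ± 0.12) and Flt3, the dendritic cell growth factor receptor, at 0.458, 0.635 and 0.46 in naïve and 6.41, 4.1 and 4.2 in vehicle samples (1.94 ± 0.14). Xcr1, which marks cross-presenting dendritic cells, was under 1 RPKM in all 6 samples, and Cd209a was not called (12, 12.2 and 15 RPKM in naïve and 25.1, 12.3 and 18.6 RPKM in vehicle samples, adjusted p = 0.0957; called at 0.69 without vehicle 2).

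The largest rise of all was that of Arg1, arginase 1, which breaks down arginine. Arg1 was at 0.11, 0.0372 and 0.077 RPKM in the naïve samples and at 845, 1224 and 201 RPKM in the vehicle samples, a log2 fold change of 9.11 ± 0.57 (adjusted p = 1.66e-06). Vehicle 3 was far below the others, and without it the estimate was 9.89. Of 18 genes of alternative activation and arginine use, 13 rose and 2 fell, with a median of 3.95. Arg1, Anpep, Nos2, Ccl22, Slc7a2, Ccl17 and Arg2 averaged under 1 RPKM in naïve samples. They entered the test only through the vehicle samples, which fixed their direction. Cd163 averaged under 1 RPKM in vehicle samples, and its fall was fixed by the filter as well. Chil3, a chitinase-like secreted protein, was also lowest in vehicle 3, with 6.99, 10.9 and 12.1 RPKM in naïve and 709.6, 943 and 187 in vehicle samples (5.54 ± 0.54; 6.25 without vehicle 3). Mrc1, the mannose receptor, was at 22.7, 32 and 33.3 RPKM in naïve and 99.5, 65.9 and 12.5 RPKM in vehicle samples, and vehicle 3 lay below every naïve sample (0.59 ± 0.65, adjusted p = 0.422; 1.45 and called, adjusted p = 0.000338, without vehicle 3). The eosinophil-attracting chemokine gene Ccl24 was at 236, 427 and 6.28 RPKM in the vehicle samples against 4.8, 4.3 and 5.54 in naïve ones (3.95 ± 1.32, adjusted p = 0.0228); leaving out single samples moved this between 2.83 and 5.76 and ended the call in 5 of 6 fits. Other users of arginine rose too: Nos2, the inducible nitric oxide synthase of classical activation, was at 0, 0.0247 and 0.0259 RPKM in naïve and 10.1, 29 and 40.3 RPKM in vehicle samples (4.56 ± 0.41), here with vehicle 1 the lowest, and the mitochondrial arginase Arg2 at 0.109, 0.198 and 0.241 in naïve and 13.5, 23.5 and 16 in vehicle samples (3.94 ± 0.17).

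**Figure D3:**
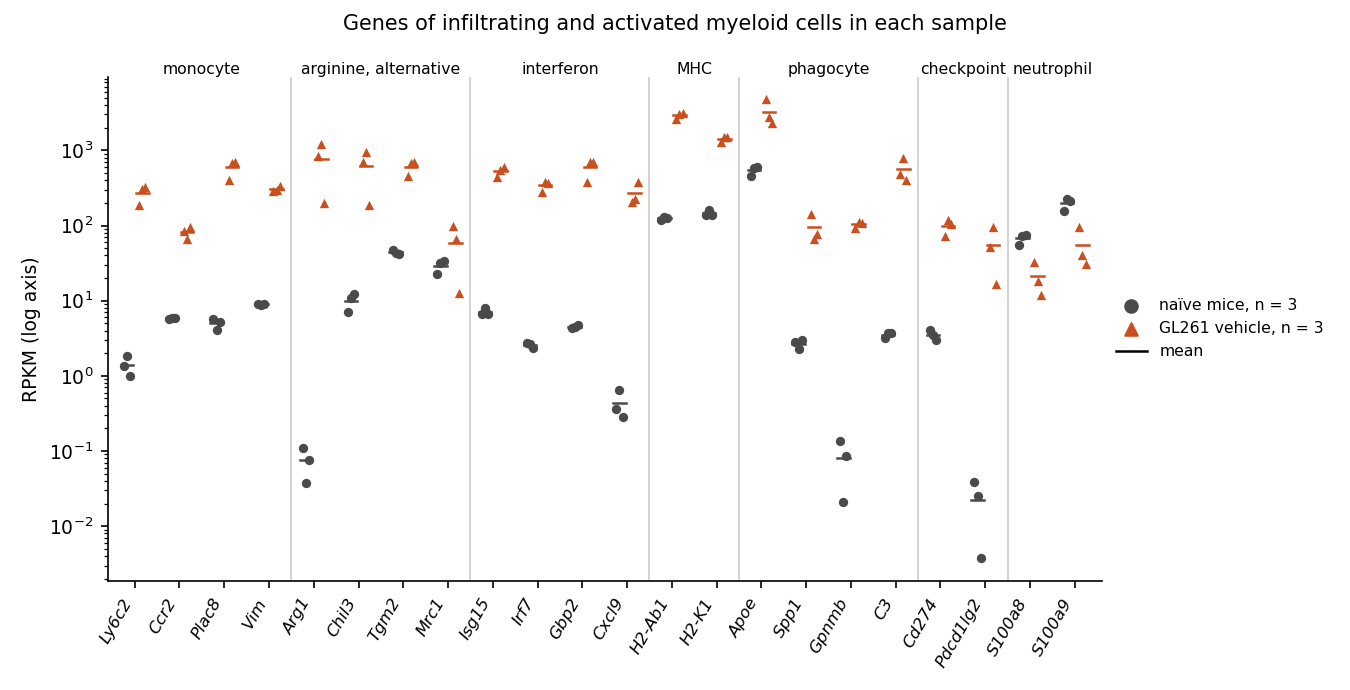
RPKM on a log axis of 22 genes of infiltrating and activated myeloid cells in each of the 3 naïve samples (dots) and 3 GL261 vehicle samples (triangles), with bars at the means. H2-Ab1 is at 2623, 3030.2 and 3130.1 RPKM in the vehicle samples, whereas Arg1, Chil3, Mrc1 and Pdcd1lg2 are lowest in vehicle 3.

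Interferon response genes rose without exception. All 22 type I interferon response genes rose by more than 2-fold (median 4.57, lowest 1.68 for Ddx58) and all 19 interferon-gamma targets rose, 18 of them by more than 2-fold (median 3.54, lowest 0.74 for Irgm2). Isg15, a ubiquitin-like modifier and the first promoter shown above, was at 6.73, 7.97 and 6.58 RPKM in naïve and 443, 549 and 602 in vehicle samples (6.03 ± 0.12). Irf7, the factor that amplifies interferon production, was at 2.72, 2.63 and 2.37 in naïve and 283, 378 and 365 in vehicle samples (6.57 ± 0.11). Gbp2, a guanylate-binding GTPase whose promoter is also shown above, was at 4.35, 4.42 and 4.68 in naïve and 381, 709.7 and 708 in vehicle samples (6.72 ± 0.22), and Iigp1, an immunity-related GTPase, at 0.157, 0.321 and 0.319 in naïve and 28.9, 52.9 and 44.2 in vehicle samples (5.05 ± 0.19). Ifit3 and Irgm1 rose by 4.71 ± 0.10 and 3.03 ± 0.17. Vehicle 1 was the lowest vehicle sample in 21 of the 22 type I genes and in all 19 interferon-gamma targets, yet it lay above every naïve sample in each. Transcripts of the ligands themselves were scarce: Ifnb1 was at 0.275, 0.0657 and 0.228 RPKM and Ifng at 0.129, 1.44 and 0.699 RPKM in the vehicle samples, and neither reached the level tested. Tgtp1 and Tgtp2 are near-identical copies, and their separate values are uncertain.

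Antigen presentation genes were mostly higher. Of 10 tested MHC class II genes (of 11), 8 rose and H2-Ob, which restrains peptide loading, fell (-0.97 ± 0.12), and the median was 3.20. Cd74, the invariant chain, became the highest protein-coding gene of the vehicle group, at 8893, 9818 and 9639.9 RPKM against 469.9, 546 and 545 in naïve mice (4.18 ± 0.09). H2-Ab1 went from 117, 132 and 126 to 2623, 3030.2 and 3130.1 RPKM (4.54 ± 0.09) and H2-Aa and H2-Eb1 rose by 4.26 ± 0.08 and 4.01 ± 0.08. Ciita, the master regulator of these genes, rose from 0.958, 1.18 and 1.51 to 36.8, 47.2 and 41.5 RPKM (4.27 ± 0.11). Of 19 MHC class I and peptide loading genes, 17 rose and the chaperones Calr (-0.20 ± 0.06; not called under the other scalings) and Pdia3 (-0.49 ± 0.06) fell. H2-K1 was at 139, 159 and 138 RPKM in naïve and 1274, 1492 and 1495 RPKM in vehicle samples (3.28 ± 0.09), the peptide transporter Tap1 rose by 3.22 ± 0.13 and the immunoproteasome subunit Psmb9 by 2.50 ± 0.12. H2-Q6 and H2-Q7 (5.54 and 5.64) are close copies, and their separate values are uncertain.

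Ligands that restrain or help T cells changed in both directions. Of 14 tested inhibitory genes (of 16), 7 rose and 6 fell. Cd274, which encodes PD-L1, was at 4.06, 3.52 and 2.97 RPKM in naïve and 71.7, 119 and 103 in vehicle samples (4.43 ± 0.18), and Pdcd1lg2, which encodes PD-L2, at 0.0384, 0.0256 and 0.00376 in naïve and 51.7, 95.5 and 16.6 in vehicle samples (5.45 ± 0.52; 6.12 without vehicle 3). Vsir, which encodes the microglia-rich inhibitory receptor VISTA, fell from 916, 890.3 and 834 to 178, 130.2 and 164 RPKM (-2.49 ± 0.11). Of 7 tested co-stimulatory ligands (of 10), 4 rose and 2 fell. Cd40 went from 0.299, 0.255 and 0.316 to 31.8, 42.2 and 45.3 RPKM (4.97 ± 0.12), Cd86 fell from 70.8, 72.1 and 75 to 46.7, 42 and 58.8 (-0.57 ± 0.11), and Cd80 was not called (6.44, 6.7 and 7.3 RPKM in naïve and 6.06, 4.5 and 6.62 RPKM in vehicle samples, adjusted p = 0.105; called at -0.33 without vehicle 3).

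Chemokines rose broadly, while their receptors were split. Of 19 tested CC and CXC chemokines (of 21), 17 rose and none fell. Cxcl9, which draws CXCR3-bearing T cells and was the third largest rise of all genes, was at 0.366, 0.652 and 0.281 RPKM in naïve and 206, 226 and 378 in vehicle samples (7.52 ± 0.22), and Cxcl10, whose promoter is shown above, at 1.05, 1.31 and 0.96 in naïve and 207, 212 and 295 in vehicle samples (6.81 ± 0.14). Ccl5 was at 1.02, 1.55 and 2.24 in naïve and 271, 566 and 532 in vehicle samples (7.41 ± 0.29). Ccl8 varied widely, with 598, 236 and 28 RPKM in the vehicle samples against 0.866, 2.21 and 2.39 in naïve ones (5.88 ± 0.95; 4.93 without vehicle 1 and 7.11 without vehicle 3). Cxcl13 was low in both groups (0, 0.000626 and 0.248 RPKM in naïve and 2.57, 2.04 and 1.63 RPKM in vehicle samples; 1.51 ± 0.13). Of 10 tested receptors (of 12), 5 rose and 2 fell: Cxcr4 went from 7.25, 6.69 and 7.05 to 267, 258 and 254 RPKM (5.03 ± 0.05), whereas the microglial Cx3cr1 was among those that fell. Of 14 tested cytokines (of 19), 10 rose and 3 fell, or 11 and 1 under both other scalings. Il1b was at 15.4, 16 and 18.7 RPKM in naïve and 446, 439 and 473 RPKM in vehicle samples (4.68 ± 0.08), its antagonist Il1rn at 0.226, 0.22 and 0.214 in naïve and 95.8, 121 and 162 in vehicle samples (6.67 ± 0.16) and Tnf at 5.97, 5.41 and 4.22 in naïve and 20.3, 20.4 and 20.7 in vehicle samples (1.80 ± 0.10), and the growth factor gene Pdgfb fell (-2.61 ± 0.13).

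**Figure D4:**
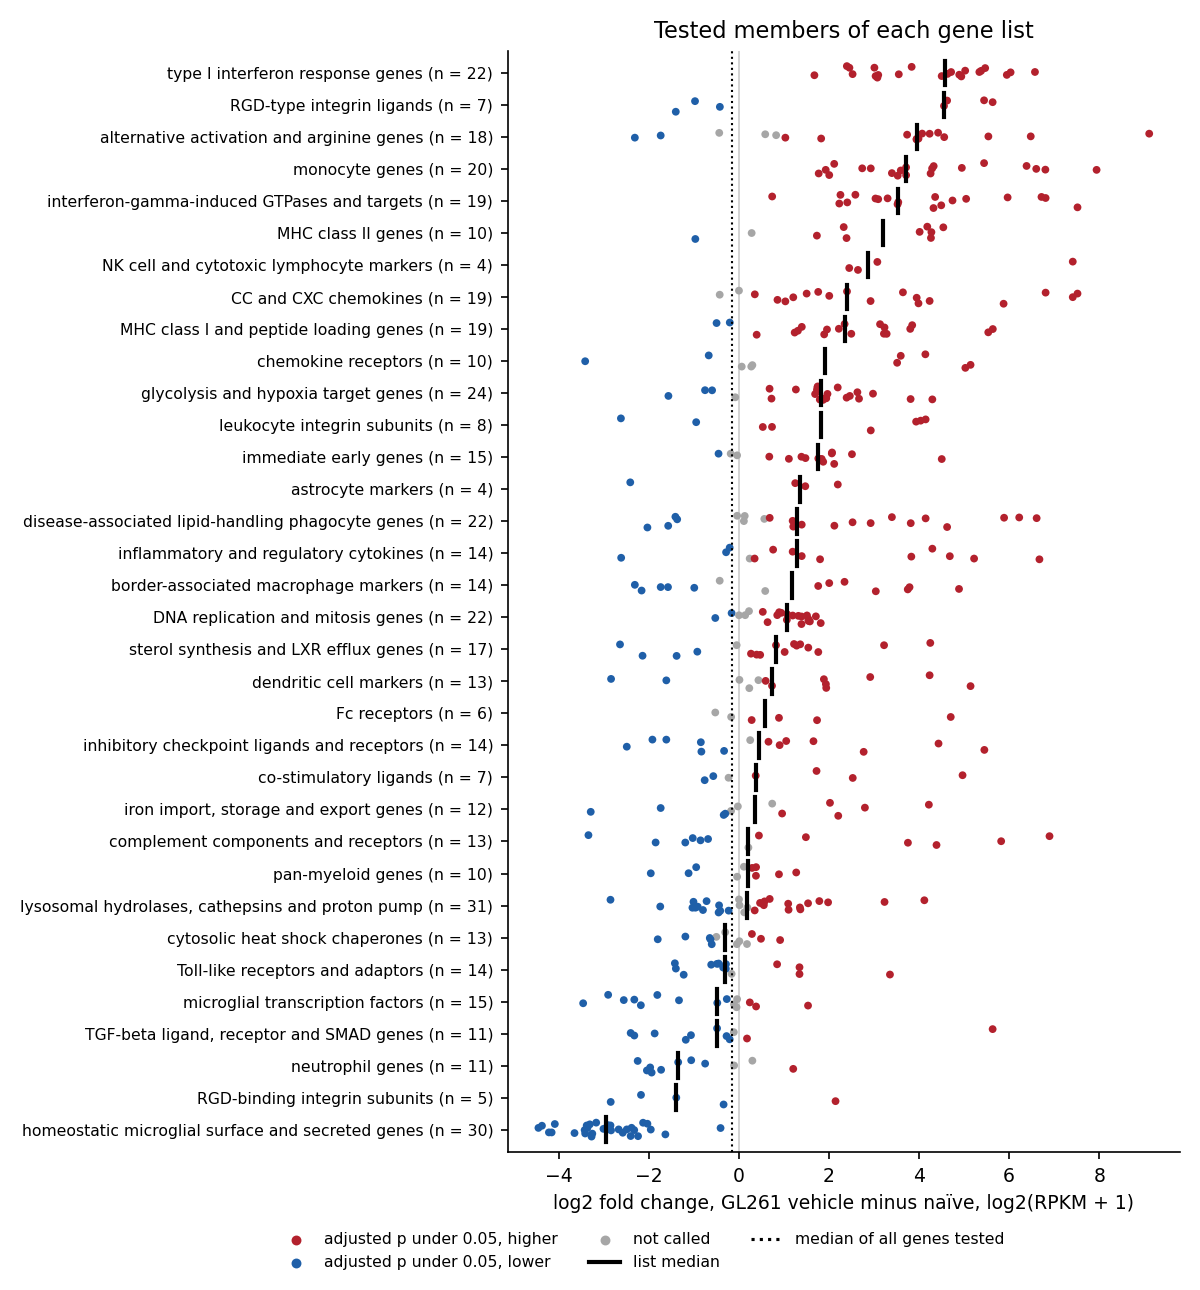
Log2 fold change, vehicle minus naïve, of every tested member of the gene lists with at least 4 tested members, in red where called higher, blue where called lower and gray where not called, with list medians as bars and the median of all 9728 genes (-0.14) as a dotted line. Type I interferon response genes (median 4.57) stand at the top and homeostatic microglial genes (median -2.96) at the bottom.

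Phagocyte and lipid genes were partly exchanged. In the list of disease-associated, lipid-handling phagocyte genes, first described in neurodegeneration, 22 of 23 were tested, 14 rose and 4 fell, with a median of 1.30. Apoe, the lipid carrier, went from 457, 576 and 604 to 4755, 2790.0 and 2293 RPKM (2.52 ± 0.25), Gpnmb, a glycoprotein of lipid-laden macrophages, from 0.135, 0.0209 and 0.0864 to 93.7, 112 and 109 (6.61 ± 0.08) and the galectin gene Lgals3 from 7.77, 6.56 and 6.47 to 469, 489.6 and 445 (5.89 ± 0.08). Trem2, the lipid receptor on which that programme depends in the diseased brain, fell from 259, 267 and 231 to 75.6, 53.8 and 55.5 RPKM (-2.03 ± 0.13), and the lipoprotein lipase gene Lpl was low and not called (2.27, 2.14 and 2.3 RPKM in naïve and 3.49, 1.59 and 2.83 RPKM in vehicle samples, adjusted p = 0.516; called at 0.36 without vehicle 2). Clec7a was at 11.7, 10.6 and 12.9 RPKM in naïve and 503, 602 and 325 in vehicle samples and was not tested because the annotation does not class it as protein-coding.

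Complement genes moved in both directions. Of 13 tested (of 16), 6 rose and 6 fell. The C1q chains, which start the classical pathway, fell from a high level: C1qa went from 5556, 5642 and 5225 to 3191, 2479 and 2465 RPKM (-1.02 ± 0.11), and C1qb (-0.85 ± 0.10) and C1qc (-1.19 ± 0.11) fell with it. C3, the central component and the seventh largest rise of all genes, went from 3.19, 3.76 and 3.69 to 489, 787 and 409 RPKM (6.90 ± 0.21), and Cfb, the protease factor of the alternative pathway, from 0.0216, 0.0196 and 0.0227 to 43.4, 66.2 and 63.8 (5.82 ± 0.15). Of 6 Fc receptor genes, 4 rose and none fell, among them the activating receptor Fcgr4 (12.8, 14.8 and 13.7 RPKM in naïve and 347, 386 and 420.2 RPKM in vehicle samples; 4.70 ± 0.08) and Fcgr1 (0.29 ± 0.08). Of 14 Toll-like receptor genes and adaptors, 4 rose, led by Tlr8 (3.35 ± 0.12) and Tlr2 (1.35 ± 0.10), and 9 fell, among them Tlr7 (-1.40 ± 0.10) and the co-receptor gene Cd14 (-0.29 ± 0.07; not called under the other scalings); 6 fell under both other scalings.

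Lysosomal and sterol genes were also split. Of 31 lysosomal genes, 15 rose and 12 fell. Ctsd, the cathepsin that was highest after Ctss in naïve mice, fell from 3349.9, 3454 and 3421 to 1314, 877 and 911 RPKM (-1.74 ± 0.15), whereas Ctss, which cleaves the invariant chain, rose from 4284, 4240.4 and 4247 to 5946, 6631 and 6069.9 (0.54 ± 0.08) and Ctsz by 0.47 ± 0.08. Of 17 tested sterol genes (of 19), 12 rose and 4 fell: the synthetic enzyme Sqle (1.54 ± 0.13) rose and the cholesterol exporter Abca1 fell from 104, 112 and 109 to 45.6, 34.5 and 43.7 RPKM (-1.38 ± 0.10). Of 12 iron genes, 5 rose and 4 fell: the ferritin chain Fth1 (2.80 ± 0.09) and the heme oxygenase Hmox1 (23.5, 30.3 and 30.2 RPKM in naïve and 170.3, 108 and 125 RPKM in vehicle samples; 2.21 ± 0.17) rose, and the exporter Slc40a1 fell from 24.1, 26.2 and 28.3 to 2.44, 1.04 and 2.07 RPKM (-3.29 ± 0.18).

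Glycolytic and cell cycle genes were higher. Of 24 tested glycolysis and hypoxia targets (of 25), 20 rose and 3 fell (median 1.83). The glucose transporter Slc2a1 went from 23.1, 22.1 and 22.5 to 74.5, 91.7 and 105 RPKM (1.94 ± 0.11), the lactate dehydrogenase Ldha from 53, 51.5 and 50.1 to 220.4, 244 and 256 (2.20 ± 0.07), the lipid droplet protein Hilpda from 3.32, 3.63 and 3.17 to 19.2, 17.5 and 12.4 (1.97 ± 0.14) and the angiogenic factor Vegfa from 0.449, 0.393 and 0.431 to 25, 29.4 and 26.7 (4.30 ± 0.07). Of 22 tested replication and mitosis genes (of 30), 17 rose and 2 fell (19 and 1 under both other scalings), and 8 members stayed under the level tested. In the naïve samples 19, 18 and 18 of the 30 members were under 1 RPKM. Tested members that averaged under 1 RPKM there, among them Mki67 and Top2a, entered only through the vehicle samples and could only rise. The same holds for Vegfa. Mki67, a marker of cycling cells, was at 0.226, 0.327 and 0.435 RPKM in naïve and 2.83, 5.01 and 2.55 RPKM in vehicle samples (1.71 ± 0.19), Top2a at 0.247, 0.683 and 0.687 in naïve and 2.41, 3.9 and 3.93 in vehicle samples (1.51 ± 0.17) and the helicase subunit Mcm5 at 2.89, 3.2 and 3.18 in naïve and 5.76, 8.27 and 9.15 in vehicle samples (1.07 ± 0.14).

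Among the 10 largest rises of all genes, 5 were on no list, of which Ly6a is given above. AA467197 was at 0.414, 0.187 and 0.344 RPKM in naïve and 146, 201 and 247 RPKM in vehicle samples (7.21 ± 0.17), and Acp5, the tartrate-resistant acid phosphatase, at 0.33, 0.505 and 0.335 RPKM and 194, 173 and 131 RPKM, respectively (6.89 ± 0.14). The coagulation factor gene F10 (6.89 ± 0.19) and the serpin gene Serpina3g (0.0409, 0.161 and 0.0814 RPKM in naïve and 107, 196 and 87 RPKM in vehicle samples; 6.82 ± 0.26) were the others.

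Genes that respond to handling were examined beside these results, since cells are dissociated with enzymes before the sort. Of 15 tested immediate early genes (of 16), 12 rose, Jund fell (-0.45 ± 0.14; not called under the other scalings or without some single samples) and 2 were not called. Fos was at 201, 253 and 218 RPKM in naïve and 959, 1087 and 786 in vehicle samples (2.06 ± 0.13), whereas Jun and Egr1 were not called (adjusted p = 0.724 and 0.382). Of 13 tested cytosolic chaperones (of 14), 3 rose and 5 fell. Hspa1a, whose coding sequence is nearly shared with Hspa1b, was at 6.3, 14.9 and 14.5 RPKM in naïve and 4.6, 3.79 and 4.66 RPKM in vehicle samples (-1.19 ± 0.27), and Hsp90aa1 was not called (38.4, 45.6 and 50.5 RPKM in naïve and 50.4, 38.6 and 46.6 RPKM in vehicle samples). The part of handling in the other results was not tested.

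Lymphocyte markers moved in both directions. Of 14 NK and cytotoxic markers, 4 were tested and all 4 were called higher. Klrk1, Gzma and Gzmb averaged 0.10, 0.23 and 0.082 RPKM in naïve samples. They entered the test only through the vehicle samples, which fixed their direction. Apart from Ccl5, which macrophages also express, the highest was Klrk1 at 6.3, 8.49 and 10.5 RPKM in the vehicle samples (3.07 ± 0.15). Gzma was at 0.136, 0.336 and 0.213 in naïve and 2.51, 10.3 and 6.58 in vehicle samples (2.45 ± 0.36). The defining receptor Ncr1 was under 1 RPKM in every sample. None of 12 T cell markers reached the level tested, and Cd3e was at 0, 0.177 and 0.36 RPKM in the vehicle samples. Vehicle 1 was the lowest vehicle sample in all 4 tested NK genes and in Cd3e, as it was in the interferon-gamma targets; the part of lymphocytes in that order was not tested. Of 7 B cell markers, Cd79b (-1.27 ± 0.10) and Bank1 (-2.68 ± 0.09) were tested and fell, while Cd79a was under 1 RPKM in every sample. Ighm, the IgM heavy chain and the most abundant of these markers, was at 214, 184 and 198 RPKM in naïve and 44.4, 48.7 and 58.5 RPKM in vehicle samples and was not tested because the annotation does not class it as protein-coding. Of 10 endothelial and mural markers, the receptor genes Flt1 (3.26 ± 0.29) and Kdr (1.49 ± 0.07) were tested and rose, and Cldn5 was under 1 RPKM throughout. Flt1 averaged 0.22 RPKM in naïve samples and also entered the test only through the vehicle samples. Of 7 astrocyte markers, 4 were tested, 3 rose and Slc1a3 fell (-2.41 ± 0.09), and Gfap was at 0.202, 0.139 and 0.172 RPKM in naïve and 1.91, 2.91 and 2.04 RPKM in vehicle samples. The adult globin genes Hba-a1 and Hbb-bs fell (-0.53 and -0.94) from levels of at most 3.78 RPKM, and the erythroid enzyme Alas2 was under 1 RPKM in every sample.

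The 3 vehicle samples differed from each other in a patterned way. The median SD of log2(RPKM + 1) over all tested genes was 0.0852 among vehicle and 0.0683 among naïve samples. It was 0.302 among vehicle samples for the homeostatic genes, of which 25 of 30 were lowest in vehicle 2. It was 0.613 for alternative activation, of which 12 of 18 genes were lowest in vehicle 3, and 0.524 for neutrophil genes, all 11 of which were lowest in vehicle 3. Vehicle 1 was lowest in 18 of 19 MHC class I genes, 20 of 22 replication genes and 21 of 24 glycolysis genes, and vehicle 2 was highest in 14 of 15 immediate early genes. These orders describe 3 pools of 2 animals each and were not tested.

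**Figure D5:**
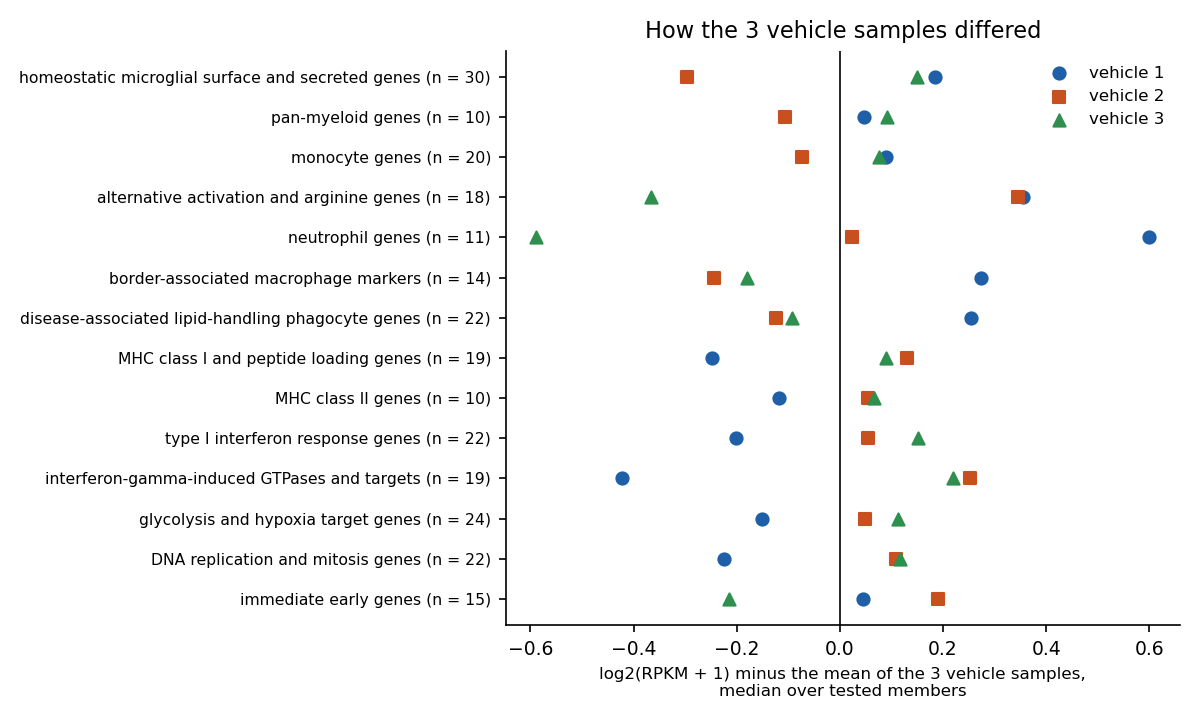
Median over the tested members of 14 gene lists of log2(RPKM + 1) in each vehicle sample minus the mean of the 3 vehicle samples. Vehicle 1 (dots) lies lowest for interferon, MHC, glycolysis and replication genes, vehicle 2 (squares) for homeostatic microglial genes and vehicle 3 (triangles) for alternative activation, neutrophil and immediate early genes.

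The same naïve samples were also the reference for tumor-bearing mice whose pumps delivered the integrin-blocking heptapeptide 7aaRGD or its control 7aaRAE, so those comparisons share their controls with this one. Against naïve mice, 35.1% of genes rose and 47.3% fell with 7aaRGD, and 34.6% rose and 48.6% fell with 7aaRAE; at least 2-fold rises and falls made up 14.7% and 12.7% with 7aaRGD and 14.4% and 13.8% with 7aaRAE. Mean P2ry12 was 1736 RPKM in naïve mice and 104, 154 and 124 RPKM in the vehicle, 7aaRGD and 7aaRAE groups. Mean Isg15 was 7.09 in naïve mice and 532, 696 and 652 in the tumor-bearing groups, and mean H2-Ab1 125 and 2928, 2632 and 2905. Arg1 was at 95.6, 122 and 201 RPKM in the 7aaRGD samples and 204, 243 and 265 RPKM in the 7aaRAE samples, which overlapped the vehicle samples: all lay below vehicle 1 and vehicle 2, and the 7aaRAE samples lay above vehicle 3. The median of the homeostatic list was -2.58 for 7aaRGD and -2.82 for 7aaRAE against naïve mice, and that of the type I interferon list 4.86 and 4.79.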

How the data were processed

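CD11b+ cells were sorted and profiled by stranded mRNA sequencing, and reads were, per the study's methods, trimmed with Trimmomatic, aligned to mm10 with STAR and counted per gene with HTSeq. The authors deposited 1 table whose values are taken here as RPKM plus a constant of 2, added by a step that no source used here describes. The constant was subtracted and values under it were set to 0. These were 5.99 to 6.97% of all values per sample, and 12.6 to 14.6% in rows with signal. The lowest was -0.40 RPKM, in vehicle 1. Plain RPKM cannot be negative, so the values had been adjusted in some way. The effect of that step on the spread between samples was not tested. Sequencing depth is unknown. Of 54513 rows, 98.7% matched the annotation and 21848 were protein-coding. Those averaging 1 RPKM or more over the 6 samples were tested on log2(RPKM + 1) with limma (version 3.58.1, R 4.3.3) with an intensity trend, and p-values were adjusted over all 9728 genes by the Benjamini-Hochberg method. Nothing in the labels says whether the pools came from separate sorts, so the p-values measure the spread between these samples as deposited.

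Named genes were the 10 largest called changes in each direction and example members fixed per list; further list members were named after their values were seen. The 41 gene lists and their members were chosen with earlier results of these data known. Alternatives covered the pseudocount, the filter, scaling, the groups fitted, a replicate block and leaving out each sample. A few list members are not reported here.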

Additional observations from a re-analysis of the deposited data

How the results depend on the processing

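Of 460 tested list members, 413 were called; 397 of these were called in each fit that left out 1 sample, 16 were not called in at least 1 such fit and none changed sign. Leaving out 1 sample gave 3217 to 3304 genes higher and 4395 to 4642 lower. TMM factors computed on RPKM ended 14 of the 413 calls, and median-of-ratios factors 17, with 1 change of sign (Mcm3). A fold change of at least 2 kept 1423 genes higher and 1325 lower, and a mean of at least 5 RPKM gave 2860 lower. Deviations of same-numbered samples correlated at -0.043, 0.017 and -0.031, and a fit with the replicate number as a block gave 3314 higher and 4641 lower. The deposited values had been adjusted in a way not described, so these correlations cannot show whether same-numbered samples shared a batch. Deviations within groups spanned 7 independent directions where 8 were expected over the 12 samples of the table, and 4 of 4 over these 6 samples. With a mean of at least 5 RPKM the list medians turned negative for complement (-0.24), checkpoint (-0.087), co-stimulatory (-0.23) and astrocyte genes (-0.11). Leaving out single samples gave a complement median of -0.32 to 0.24 (negative without any 1 vehicle sample) and an astrocyte median of -0.12 (without vehicle 2) to 1.56. Among genes not called, Egr1 was at 0.0050 under median ratios and at -0.35 to 0.025 with single samples left out, Jun at 0.10 under TMM, 0.15 under median ratios and -0.13 to 0.033 with single samples left out, Hsp90aa1 at -0.093 to 0.12 and Lpl at -0.040 to 0.36. The cause was not tested. With 3 samples a group and unknown read depth, changes of genes near 1 RPKM are the least certain.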

Other observations

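Gene families grouped by symbol after their values were seen also moved with the tumor. Some Ms4a genes are members of the lists above and are counted there too: Ms4a4c is a monocyte gene, and Ms4a7 and Ms4a6d are border-associated genes. All 10 tested Ifi200 genes, which encode sensors of nucleic acids, rose (median 4.76), as did all 7 Schlafen genes (median 3.25) and all 7 Ms4a genes (median 3.92), among them Ms4a4c at 2.46, 2.75 and 2.61 RPKM in naïve and 251, 311 and 349 RPKM in vehicle samples (6.39 ± 0.11). Ifitm3, an antiviral membrane protein, went from 34.6, 33.8 and 35.4 to 1272, 1496 and 1769 RPKM (5.40 ± 0.11), while Ifitm10 fell (-1.82 ± 0.11). Members of these families resemble each other, and reads may be shared between them. Of 80 cytosolic ribosomal protein genes, 78 rose and 1 fell, with a median of 1.14, and of 36 nuclear genes of respiratory complex I, 33 rose and 1 fell, with a median of 0.69.

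Single enzymes and channels stood out as well. Acod1, which makes itaconate, was at 0.119, 0.128 and 0.189 RPKM in naïve and 68.6, 113 and 126 RPKM in vehicle samples (6.45 ± 0.20), and Ass1, which makes the arginine precursor argininosuccinate, at 0.57, 0.74 and 0.386 RPKM in naïve and 111, 162 and 208 RPKM in vehicle samples (6.65 ± 0.20). The coagulation factor gene F10 went from 0.393, 0.267 and 0.185 to 146, 208 and 113 RPKM (6.89 ± 0.19), and its neighbor F7 was at 53.6, 58.3 and 14.2 RPKM in the vehicle samples and listed at 0 or close to it in the naïve ones. Among potassium channel genes 6 of 10 fell and 3 rose: Kcnk13, which carries the tonic potassium current of microglia, went from 33.1, 35.3 and 34.6 to 9.47, 6.85 and 7.48 RPKM (-2.0 ± 0.10), and Kcnk12 (-3.73 ± 0.13) and Kcnd1 (-3.04 ± 0.13) fell further. Within the plexins and semaphorins, Plxnd1 rose (4.09 ± 0.22) and Plxna4 fell (-3.04 ± 0.10). The organic anion transporter gene Slco2b1 went from 534, 518 and 478 to 45.7, 33.4 and 51.2 RPKM (-3.54 ± 0.14).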
